A study of Mus musculus with 8 samples.

Results

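The regions described here were called open in both perturbed mouse embryonic stem cell populations of the study and in neither matching control population. A region without a call in a list may still be open there, below the calling threshold. Open chromatin was mapped by ATAC-seq, in which a transposase cuts and tags accessible DNA, and 1 list of open regions was deposited for each of 4 groups. Overlapping intervals of the 4 lists on chromosomes 1 to 19 and X were merged into 94048 union regions. A union region was kept when it overlapped the Ubc9-depleted and the H1 triple-knockout lists by at least 1 bp and touched neither the Ubc9-control nor the H1 wild-type list. This left 1355 regions, 1.44% of the union. They were chosen by the peak calls themselves, so their presence in 2 lists and absence from the other 2 is their definition and not a finding.

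The first pair of groups came from v6.5 cells, in which doxycycline switches off Ubc9 through a TET-OFF system. Ubc9-depleted cells had received doxycycline for 72 h, and Ubc9-control cells were of the same line. The labels name doxycycline for the depleted cells only, so an effect of the drug and one of the depletion cannot be told apart. The second pair came from another publication's cells: H1_TKO cells, of genotype H1.2-/-H1.3-/-H1.4-/-, and H1_WT cells. All cells had been kept for 4 passages in 2i/LIF medium, which holds stem cells in a naive state. Each reaction used 50000 cells and 12 PCR cycles. The 2 replicates of a group were joined into 1 list, so no value below has a replicate check and no test between groups was possible. How they were joined is not given. The Ubc9 lists and the H1 lists differ in form, so widths, scores and ranks may not be alike between the 2 pairs. Intervals around shares are exact (Clopper-Pearson) 95% binomial intervals and cover counting error only. Read depth is unknown for every list.

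SUMO is a small protein that is joined to lysines of other proteins, many of them chromatin proteins and transcription factors, and Ubc9 is its conjugating enzyme. Linker histone H1 binds the nucleosome where DNA enters and leaves it and helps compact chromatin. Both are known for a part in keeping heterochromatin and repeated sequences silent in stem cells.

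Promoters are shown first, because those at these regions were mostly rich in CpG dinucleotides, the base step at which mammalian DNA is methylated. The first 4 belong to the highest-ranking genes whose promoter was overlapped and were taken by rule. Zic1 and Nes, 2 genes of the neural lineage, were added after their values had been seen. Each line gives the 250 bases before a RefSeq transcription start (GRCm38.p6, the same coordinates as mm10), 5′ to 3′ on the gene's strand, with every CpG in capitals.
Ppara promoter, chr15:85735526-85735775, plus strand: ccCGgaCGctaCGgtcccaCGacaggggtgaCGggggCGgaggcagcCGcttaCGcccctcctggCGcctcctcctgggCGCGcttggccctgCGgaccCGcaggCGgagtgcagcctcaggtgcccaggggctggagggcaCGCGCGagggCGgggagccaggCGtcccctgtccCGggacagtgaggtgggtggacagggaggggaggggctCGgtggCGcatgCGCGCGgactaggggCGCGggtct
Zfp872 promoter, chr9:22187916-22188165, plus strand: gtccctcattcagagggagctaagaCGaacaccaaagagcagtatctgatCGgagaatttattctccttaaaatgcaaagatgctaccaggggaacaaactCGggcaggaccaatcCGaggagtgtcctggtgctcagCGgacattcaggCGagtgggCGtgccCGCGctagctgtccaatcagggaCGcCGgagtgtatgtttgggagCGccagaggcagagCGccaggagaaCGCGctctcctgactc
Pxt1 promoter, chr17:28942263-28942512, minus strand: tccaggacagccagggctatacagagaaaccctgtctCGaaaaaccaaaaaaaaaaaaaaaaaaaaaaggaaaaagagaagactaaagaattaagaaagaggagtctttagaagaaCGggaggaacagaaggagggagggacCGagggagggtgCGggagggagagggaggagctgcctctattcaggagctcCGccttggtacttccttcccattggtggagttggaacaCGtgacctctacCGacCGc
Fbxw2 promoter, chr2:34826218-34826467, minus strand: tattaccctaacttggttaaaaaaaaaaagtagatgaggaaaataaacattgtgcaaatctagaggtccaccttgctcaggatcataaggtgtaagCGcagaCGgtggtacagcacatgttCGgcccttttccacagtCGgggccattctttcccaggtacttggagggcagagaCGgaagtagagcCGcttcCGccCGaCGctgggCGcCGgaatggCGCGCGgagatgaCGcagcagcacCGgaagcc
Zic1 promoter, chr9:91365769-91366018, minus strand: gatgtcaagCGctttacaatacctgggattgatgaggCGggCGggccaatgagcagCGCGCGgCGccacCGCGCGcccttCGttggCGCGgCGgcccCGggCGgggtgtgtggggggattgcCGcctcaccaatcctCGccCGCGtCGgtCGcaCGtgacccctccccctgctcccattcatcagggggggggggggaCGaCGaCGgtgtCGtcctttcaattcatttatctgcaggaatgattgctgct
Nes promoter, chr3:87970843-87971092, plus strand: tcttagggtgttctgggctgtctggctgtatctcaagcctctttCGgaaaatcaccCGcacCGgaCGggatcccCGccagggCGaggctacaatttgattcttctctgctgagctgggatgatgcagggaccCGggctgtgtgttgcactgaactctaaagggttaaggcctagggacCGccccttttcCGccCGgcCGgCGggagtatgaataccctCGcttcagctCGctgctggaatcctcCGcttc

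The Ppara promoter, of the fatty-acid-sensing nuclear receptor PPARα, held 27 CpGs in these 250 bases and a GC content of 76.4%. All 250 bases lay inside the region, which scored 271.33 in the Ubc9-depleted list and 187.77 in the triple-knockout list. The Zic1 promoter, of a zinc-finger transcription factor of neural development, also held 27 CpGs. Zfp872, a zinc-finger gene, had 15 and Fbxw2, a substrate receptor of a ubiquitin ligase, had 16. Fbxw2 has 2 listed starts, and the 250 bases before the other (chr2:34826236-34826485, not printed) held 14. Nes, the intermediate filament nestin of neural progenitors, had 15. Pxt1, a gene known from testis, had 8 and a GC content of 49.2%, so not all promoters among these regions were rich in CpG.

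Taken over all 32619 promoter entries of the RefSeq table (250 bases before to 50 after a start), 128 entries of 116 genes were overlapped by 109 of the regions. Their median ratio of observed to expected CpG was 0.776, against 0.387 over all entries. Of the 128, 98 (76.6%, interval 68.3 to 83.6) had a ratio of at least 0.6, against 36.0% of all entries. This richness was shared with other promoters of the Ubc9-depleted list: the median was 0.786 at regions of the Ubc9-depleted and H1 wild-type lists only, 0.794 at regions of the Ubc9-depleted list only, and 0.798 at regions found in all 4 lists. It was not shared by regions found in both control lists only, where the median was 0.402 over 150 entries, or in the triple-knockout list only, at 0.387. Of the combinations compared, those that include the Ubc9-depleted list had the high ratios, and regions of the Ubc9-control and triple-knockout lists only had a median of 0.473.

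Short motifs were counted in the same 300-base entries on both strands, and only some of those counted are given. CCGGAAG, a core that ETS factors bind, was in 24.2% of the 128 entries (interval 17.1 to 32.6), in 8.92% of all entries and in 19.9% of the entries at regions of all 4 lists. GCGCATG, a part of the NRF1 motif, was in 12.5% (interval 7.32 to 19.5), against 3.92% and 7.66%. The E-box CACGTG was also in 12.5%, against 7.20% and 10.7%. For the ETS, NRF1 and E-box letters, the share at regions of all 4 lists lay within the interval. CCAAT was in 29.7% (21.9 to 38.4), against 37.6% of all entries and 42.9% at regions of all 4 lists, the last above that interval. AP-1's TGANTCA was in 1 entry (0.781%, interval 0.0198 to 4.28), against 7.85% and 3.50%, the last within that interval. GGGCGTG, bound by KLF and SP factors, was in 9.38% (4.94 to 15.8), against 8.50% of all entries and 1798 of the 9991 entries at regions of all 4 lists, a share above that interval. Among the promoters printed above, GCGCATG was found in Ppara, ending 25 and 22 bases before the start on opposite strands of an overlapping palindromic stretch. CCGGAAG was in Fbxw2, ending at the base 3 before the start, and CACGTG was in Pxt1 (16 bases before) and Zic1 (93 bases before). CCAAT was in Zfp872 (136 and 70 bases before), Pxt1 (33) and Zic1 (201 and 117), and GGGCGTG was in Zfp872 (89). Of the other letters counted, the octamer ATGCAAA was in Zfp872 (172) and AGATAA, of GATA factors, in Zic1 (19). The letters describe these windows and were not tested as binding sites.

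The regions ranked low in the whole lists by the authors' scores, which order peaks within a list. A region that is open in few cells and one that is weakly open in all cannot be told apart here. In the Ubc9-depleted list they ran from 51.6 to 676.2 with a median of 104.9, against 128.5 over that list. In the triple-knockout list they ran from 50.2 to 445.2 with a median of 94.4, against 138.8. The median percentile of the 1355 regions was 37.4 in the Ubc9-depleted and 27.1 in the triple-knockout list. All regions in the Ubc9-depleted and not the Ubc9-control list were cut by score into 5 groups of like size. The middle group ran from 92.8 to 121.2. For regions in the triple-knockout and not the wild-type list, it ran from 84.2 to 103.9. Both medians of the 1355 regions lay inside these middle groups. The low rank was thus shared with other regions missing from the matching control list. Of the 1355, 93 (6.86%) stood above the median of both lists. The top 20% of the Ubc9-depleted list held 133 of them, that of the triple-knockout list held 10, and no region was in the top 20% of both. Across the 1355 regions, which share their libraries, Pearson's r between the log scores in the 2 lists was -0.0020 and Spearman's rho -0.013.

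**Figure D1:**
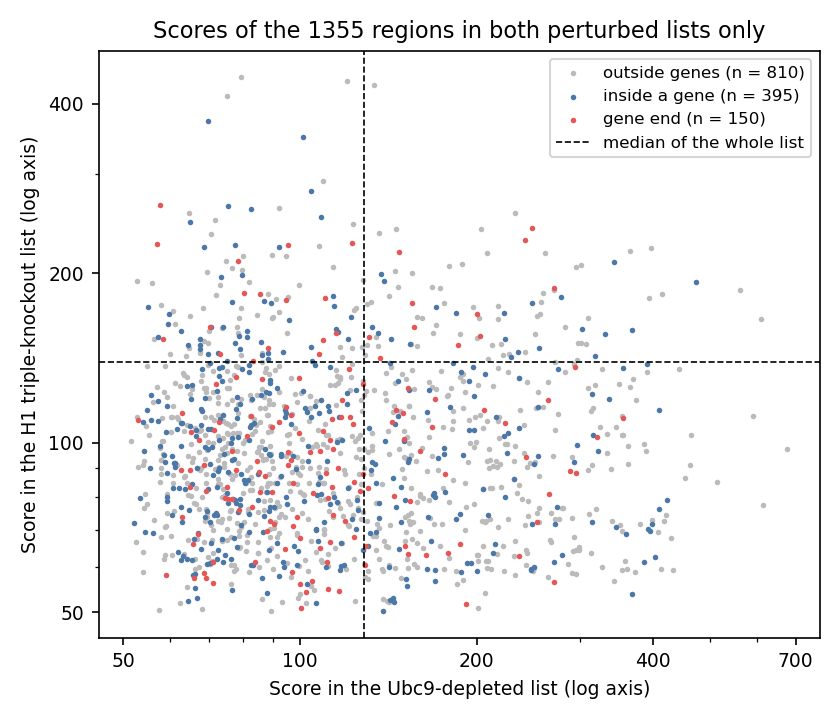
Each point is 1 of the 1355 regions, by its score in the Ubc9-depleted list (x axis, log) and in the H1 triple-knockout list (y axis, log), coloured by place relative to protein-coding genes; dashed lines are the median of each whole list. Most points lie below and left of the medians, and 93 lie above both.

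The regions were short and mostly single. Merged widths ran from 125 to 2009 bp with a median of 402 bp, and together they covered 0.657 Mb. In 1321 of the 1355, 1 interval of each list met. The Ubc9-depleted interval had a median width of 386 bp and the triple-knockout interval one of 216 bp, a difference that the lists as a whole also had (430 and 259 bp). The former ran from 115 to 2009 bp and the latter from 2 to 823 bp. As the lists of the 2 pairs differ in form, whether these widths reflect the cells was not tested. In 988 (72.9%) the triple-knockout interval lay wholly inside the Ubc9-depleted one, the median overlap was 208 bp, and 17 met over less than 50% of the shorter interval. The nearest region of either control list was a median of 11818 bp away.

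At the edge of the definition, the 5 kept regions closest to a control region stood 19 bp from one near Tpd52, 141 bp near A830018L16Rik, 186 bp near Dscam, 201 bp near Msh6 and 222 bp near Tmem267. The 5 regions that were left out by the smallest overlap with a control list met it, in each case that of H1_WT, over 9 bp near Cxcl1, 16 bp near Gm52229, 39 bp near Hdgfl1, 51 bp near Tex48 and 65 bp near Ralyl. In all, 18 kept regions had a control region within 500 bp.

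The number of regions was set beside that of other combinations of lists. Of the union, 23.3% was in the Ubc9-depleted and not the Ubc9-control list, and 18% was in the triple-knockout and not the wild-type list. Both hold for 1.44%, fewer than the 3472 regions that were in both control lists and neither perturbed one. Of the 25106 regions in both perturbed lists, 5.40% were in no control list. These counts use the same calls that define the regions and are given as a description.

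Among regions that distinguished both pairs, the direction was uneven. Of the 2246 regions in the Ubc9-depleted and not the Ubc9-control list that were also in exactly 1 H1 list, 1355 were in the triple-knockout list, or 60.3% (interval 58.3 to 62.4), and 891 in the wild-type list. Of the 5990 in the Ubc9-control and not the Ubc9-depleted list, 42.0% (40.8 to 43.3) were in the triple-knockout list. With the same number of top-scoring intervals taken from each list, 46622, these shares were 56.5% and 39.2%. In the full lists, regions in neither Ubc9 list were 11230 in the triple-knockout list only and 8349 in the wild-type list only. Of regions in both Ubc9 lists and 1 H1 list, 1846 were in the triple-knockout and 1601 in the wild-type list. The triple-knockout list thus also led among regions that did not distinguish the Ubc9 pair. Seen from the other pair, 35.0% (33.5 to 36.5) of the regions in the triple-knockout and not the wild-type list, among those in 1 Ubc9 list, were in the Ubc9-depleted list. The share was 20.4% (19.2 to 21.6) for those in the wild-type and not the triple-knockout list. Of regions in neither H1 list, 18353 were in the Ubc9-depleted list only and 4869 in the Ubc9-control list only. Of regions in both H1 lists and 1 Ubc9 list, 1315 were in the Ubc9-depleted and 9334 in the Ubc9-control list. Taken by chromosome, the share in the triple-knockout list was higher for regions of the Ubc9-depleted than of the Ubc9-control list on 19 of 20. X was the exception, at 43.8% against 50.7%.

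**Figure D2:**
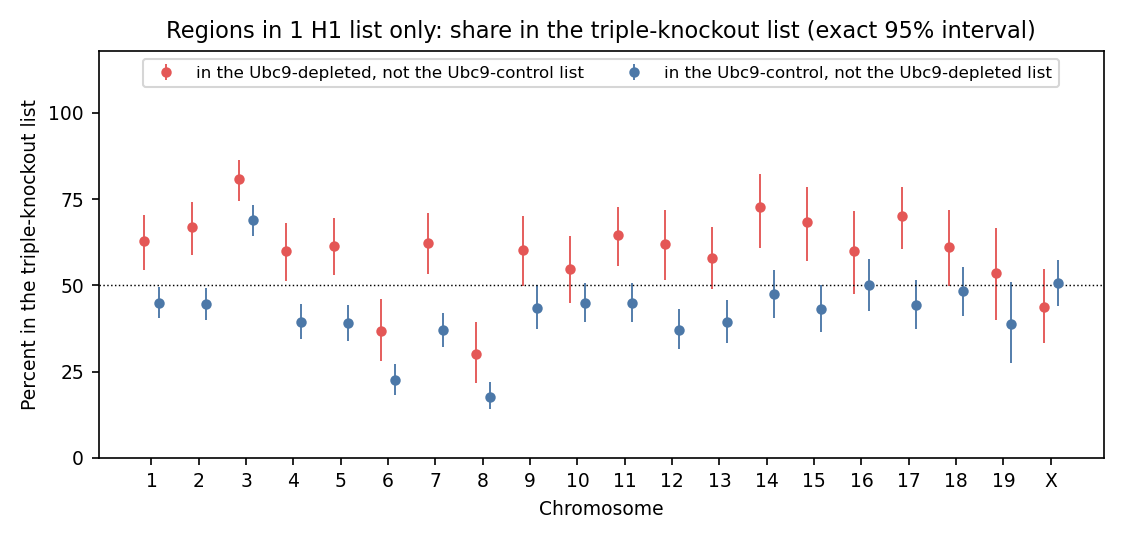
For each chromosome (x axis), the percent of regions in 1 H1 list that were in the triple-knockout list (y axis, bars are exact 95% intervals), for regions in the Ubc9-depleted and not the control list (red) and the reverse (blue); the dotted line is 50%. Red lies above blue on 19 of 20 chromosomes, and both are high on chromosome 3 and low on chromosomes 6 and 8.

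The share in the triple-knockout list was highest for the highest-scoring regions of the Ubc9-depleted list. Regions in the Ubc9-depleted and not the control list were cut by score into 5 groups of like size. In the lowest group, 300 were in the triple-knockout and 247 in the wild-type list only (54.8% in the former, interval 50.6 to 59.1). In the highest group, 304 were in the triple-knockout and 87 in the wild-type list (77.7%, interval 73.3 to 81.8). The 3 groups between them lay at 59.1%, 53.5% and 59.4%, so the step was in the last. Regions in the triple-knockout and not the wild-type list, cut the same way, were also in the Ubc9-depleted rather than the Ubc9-control list in 40.4% of cases in the lowest group (36.6 to 44.4) and 26.6% in the highest (23.7 to 29.6).

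**Figure D3:**
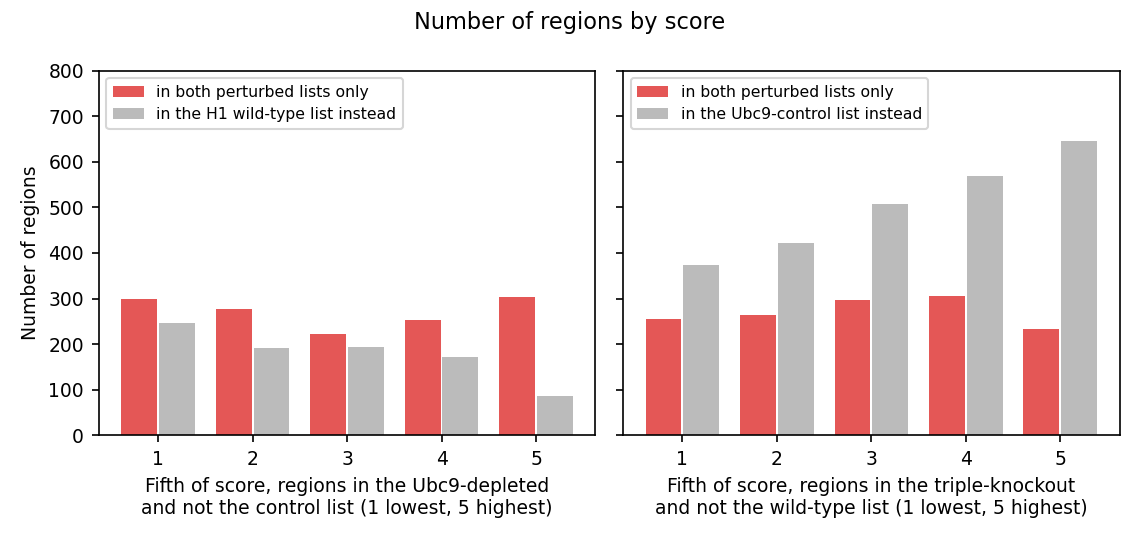
Number of regions (y axis) by score group (x axis, 1 lowest to 5 highest): left, regions in the Ubc9-depleted and not the control list that were in the triple-knockout (red) or wild-type (grey) list only; right, regions in the triple-knockout and not the wild-type list that were in the Ubc9-depleted (red) or Ubc9-control (grey) list only. On the left grey falls from 247 to 87 while red stays between 223 and 304; on the right grey climbs from 374 to 646.

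Most of the regions lay away from genes. Of the 1355, 150 (11.1%, interval 9.45 to 12.9) were within 1000 bp of an annotated end of a protein-coding gene, called a gene end here. A further 395 (29.2%, 26.7 to 31.7) were elsewhere inside a gene and 810 (59.8%, 57.1 to 62.4) outside genes. Over the whole union these shares were 14.9%, 34.5% and 50.6%. Regions in both control lists only differed from them beyond these intervals, with 6.80% at gene ends and 43.9% inside genes, as did regions of the Ubc9-depleted list only, with 4.45% at gene ends and 71.4% outside genes. Regions of the Ubc9-depleted and wild-type lists only came nearest, with 15.5%, 25.5% and 59.0%. The median distance to a gene end was 20.6 kb, and 20.3% had a region of all 4 lists within 10 kb. For regions in both control lists only these values were 24.2 kb and 23.1%. For the Ubc9-control and triple-knockout lists only they were 23.3 kb and 22.4%. They were 32.1 kb and 15.9% for the Ubc9-depleted and wild-type lists only, and 41.3 kb and 12.8% for the Ubc9-depleted list only.

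**Figure D4:**
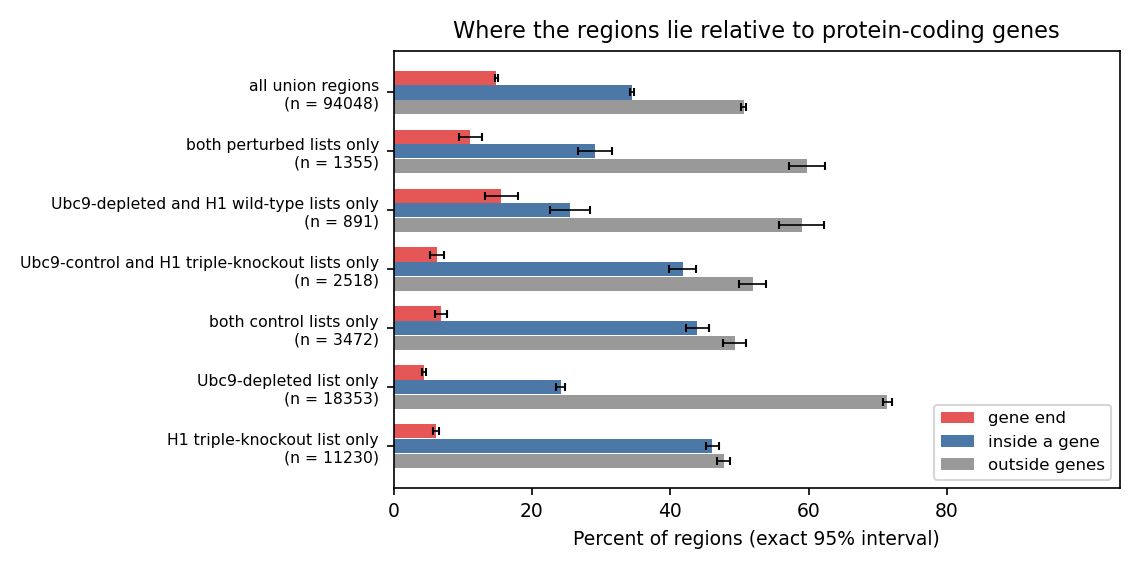
Percent of regions (x axis, with exact 95% intervals) at a gene end, inside a gene and outside genes, for the whole union and for 6 combinations of lists (rows). Regions in both perturbed lists only had 59.8% outside genes, against 50.6% of the union.

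The 12 highest-ranking regions, by the lower of the 2 within-list percentiles, were led by one at Fjx1, a Golgi kinase of planar cell polarity. It spanned chr2:102450709-102451965, scored 248.7 in the Ubc9-depleted and 240.2 in the triple-knockout list, and had no control region within 36837 bp. The region at Gm52435, a gene model on chromosome X, scored 241.8 and 229.4. The region 8254 bp from Pmm1, which makes mannose 1-phosphate, scored 232.8 and 256.1. One 60185 bp from Tes, a focal adhesion protein, scored 396.0 and 222.0, and one 52839 bp from the zinc importer Slc39a10 scored 364.8 and 219.2. In these, both scores stood above the 70th percentile of their lists. Inside Pard3b, a cell polarity gene, a region 101954 bp from the nearest gene end scored 342.4 and 209.6. The others were nearest to Nudcd1, to Enpep, which codes for an aminopeptidase, to Gm9631, to the lactate transporter gene Slc16a1, to Spg20, and to Bmf, which codes for a pro-apoptotic protein of the BCL2 family. Of the 12, 2 were at a gene end.

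Of 21627 protein-coding genes, 170 (0.786%) had one of the regions at a gene end. The region was not always the gene's only peak: 131 of the 170 had no gene-end peak in either control list, 12 had one in 1 control list and 27 in both. Of the 133 that matched the promoter table, 100 had a transcription start within 1000 bp of the region. After Fjx1 and Gm52435, the order by score ran Ppara, Actn1, Zfp872, Pxt1, Fbxw2 with Gm34653, Cog6, Pick1, Mfsd4b1 and Snx4. Actn1, an actin crosslinker, differed from the rest in that both control lists had another peak at its gene ends, and its region (200.3 and 169.2) stood 91691 bp from its start. Cog6, a subunit of a Golgi tethering complex, scored 202.9 and 154.9 at its promoter. Pick1, a PDZ-domain trafficking protein, scored 185.9 and 149.3, and Snx4, an endosomal sorting nexin, 137.1 and 141.2. Mfsd4b1, a transporter of the major facilitator class, scored 131.2 and 153.9. The promoters of these 4 overlapped the region, and none of the 4 had a gene-end peak in a control list. Fbxw2 scored 147.2 and 218.1. That region also lay by an end of Gm34653, whose nearest listed start was 6597 bp away.

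Lists of genes of stem cells, early lineages and related pathways, with a housekeeping and a fibroblast list, were counted at the same windows. Of the 529 genes of 19 lists that matched the annotation (9 did not), 8 had one of the regions at a gene end, or 1.51%, and 23 had one in the gene or within 10 kb, or 4.35%. Over all protein-coding genes, 903 (4.18%) had one in the gene or within 10 kb, close to the lists' share at that distance. At gene ends the lists' 1.51% stood beside 0.786% of all protein-coding genes, on 8 genes. Of those 8, 2 came from the housekeeping list and 1 from the fibroblast list. The neural list gave 3 of its 31 genes at gene ends, where 0.786% of all genes had a region, each with no gene-end peak in either control list. Nes scored 113.7 in the Ubc9-depleted and 97.5 in the triple-knockout list and Zic1 scored 97.4 and 71.0. Both genes' regions lay below the medians of both lists. Zp3, which codes for a protein of the egg coat, scored 187.7 and 66.1. Wnt2b, a Wnt ligand, scored 71.2 and 56.3, at percentiles 11.4 and 2.23 of the lists. The collagen gene Col5a1, of the fibroblast list, scored 265.6 and 81.0. The 2 housekeeping genes, Eef2 (178.8 and 63.7) and Tubb5 (104.9 and 56.7), had gene-end peaks in both control lists as well.

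Within 10 kb of a listed gene, the SUMO pathway gave 3 of 21 genes, where 4.18% of all protein-coding genes had a region. Zmiz1, a PIAS-related protein, had 2 regions inside it (231.7 and 86.3, 66.7 and 52.9). Sumo3, one of the SUMO proteins, had one 3768 bp away (153.0 and 125.1), which lay at a gene end of Ube2g2. The third, Pias4, a SUMO ligase, was near the region at Eef2, 8597 bp away. The 2-cell embryo list gave 2 of 41 genes, Zfp352 and Gm2016, and the imprinted list 2 of 35, Nnat and Gnas. The region near Nnat overlapped the promoter of Blcap. Among the linker histones only H1f0 had one within 10 kb, 8456 bp away (66.2 and 58.3). The de novo methyltransferase gene Dnmt3b had one 6792 bp away (72.5 and 102.8). The pluripotency, trophectoderm, interferon response, p53 target and Hox lists had no region in or within 10 kb of any member. Each of these lists held only 20 to 39 matched genes, so at 4.18% few would be reached.

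The labels were checked on the genes themselves. H1_TKO intervals covered 0 bp of H1f2 and of H1f3 (genes of H1.2 and H1.3), and H1_WT intervals covered 725 and 242 bp. H1f4 (gene of H1.4) had 20 and 38 bp. None of these H1 genes had one of the regions within 10 kb. In each list, 8 of 10 stem cell markers carried a gene-end peak. Of 10 fibroblast and feeder markers, 1 had one in the Ubc9-depleted, 3 in the Ubc9-control, 2 in the triple-knockout and 4 in the wild-type list, and none of these 20 markers had one of the regions within 10 kb. Col5a1, named above, belongs to a longer fibroblast list and is not among these 10. Any part of other cell types in the regions was not tested.

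The regions were spread over all chromosomes, from 31 on chromosome 19 to 152 on chromosome 3. Chromosome 3 held 11.2% of them and 6.62% of the union, so that 2.44% of its union regions qualified. On chromosome 17 the share was 2.05% (75 regions), and on chromosomes 6 and 8 it was 0.720% (43) and 0.656% (34). Chromosomes 3, 6 and 8, but not 17, also stood apart among regions of the Ubc9-control and not the depleted list: on chromosome 3, 69.0% of those in 1 H1 list were in the triple-knockout list, and on chromosome 17 44.3%, as the plot by chromosome shows. The counts on chromosomes 3, 6 and 8 therefore moved with the H1 lists whichever Ubc9 list was used. Without those 3 chromosomes the directional shares given above were 61.6% and 43.1%.

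Some of the regions formed runs. With neighbours at most 100 kb apart, 66 of them fell into 18 runs of 3 or more, 5 of the runs on chromosome 3. The run with most regions, 7 in 211.1 kb at chr13:21811530-22022630, lay in a histone and tRNA gene cluster with H4c17, H4c18 and H2ac24 among its genes. The Ubc9-depleted list had 28 intervals there and the Ubc9-control list 13, the triple-knockout list 27 and the wild-type list 20. Next came 5 regions from Adar, an RNA-editing enzyme gene, to Atp8b2 on chromosome 3, with triple-knockout scores from 68.9 to 81.4. A run of 4 around Slc29a1, a nucleoside transporter gene on chromosome 17, reached 359.6 in the Ubc9-depleted list. On chromosome 3, 4 regions from Pear1 to Prcc lay in 108.5 kb where the wild-type list had 0 intervals and the triple-knockout list 8. Another 4 at chr3:103188791-103263368 overlapped no protein-coding gene. The shortest run, 3 regions in 7.096 kb beside Snorc on chromosome 1, had no interval of either control list. By gene, 4 genes had 3 regions in them or within 10 kb: Snorc, Gm20498 and the very long genes Macrod2 (1998 kb) and Magi2 (1485 kb). A further 46 had 2.

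**Figure D5:**
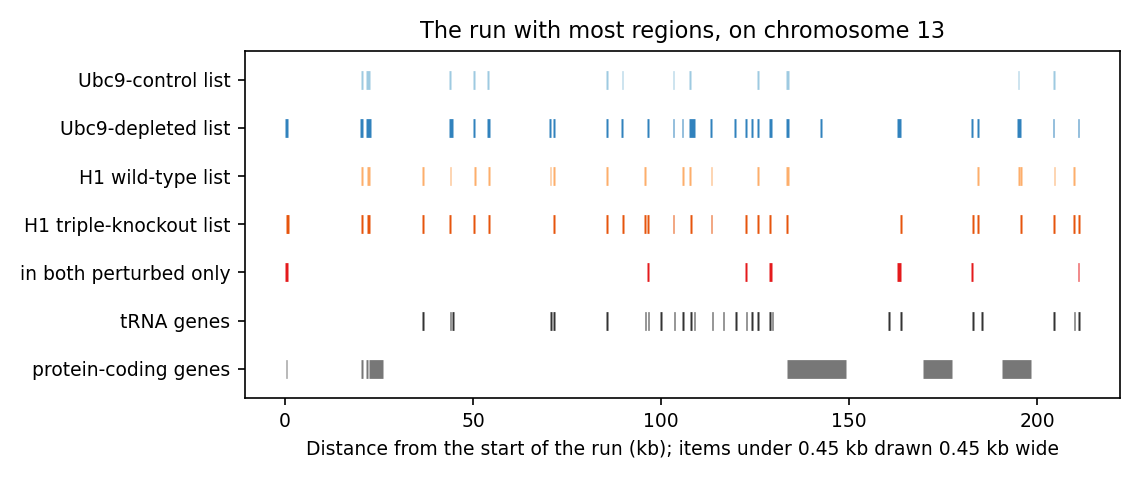
Positions (x axis, kb from the start of the run) of the intervals of the 4 lists, the regions in both perturbed lists only, tRNA genes and protein-coding genes (rows) over the chromosome 13 run. The run holds 7 of the regions and 28 tRNA genes, and the Ubc9-depleted list has 28 intervals against 13 of the Ubc9-control list.

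That run led to a count of tRNA genes, which RNA polymerase III transcribes from promoters inside the gene. The family was picked after its values had been seen. Of the regions, 12 lay within 100 bp of a tRNA gene (14 genes in all), or 0.886% (interval 0.458 to 1.54). Of the whole union, 0.198% did, and of regions in all 4 lists 0.515% did, a share within that interval. No region of the 3472 in both control lists only did, which allows a share of up to 0.0864% (3 counts), with an exact interval up to 0.106%. Of regions in the Ubc9-control and triple-knockout lists only, 0.0397% did. Other regions in the Ubc9-depleted and not the Ubc9-control list had 0.673% when also in the wild-type list only and 1.37% when in both H1 lists. Those of the Ubc9-depleted list only, in neither H1 list, had 0.104% (0.0623 to 0.162), below the union. Of 408 tRNA genes, 247 had a region in the Ubc9-depleted list, 154 in the Ubc9-control list, 171 in the triple-knockout list and 146 in the wild-type list. On chromosome 13 lay 8 of the 12, and without that chromosome 4 of 1283 regions remained, or 0.312% (0.0850 to 0.796), against 0.133% of the union. Reads from near-identical tRNA copies may not have been told apart, so which copy was open is uncertain.

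The tRNA regions were modest in score. The highest-ranking by the lower of the 2 percentiles was at the glutamate tRNA gene n-TEttc2 on chromosome 3, with 115.5 in the Ubc9-depleted and 131.1 in the triple-knockout list. The serine gene n-TSgct8, in the chromosome 13 run, scored 189.7 and 115.4. The isoleucine gene n-TIaat17 on chromosome 17 scored 234.4 and 81.5. On chromosome 3, n-TVcac10 for valine scored 217.5 and 70.8. The lowest triple-knockout score, 50.2, was at n-TVcac4 on chromosome 13. All 12 regions stood below the median of the triple-knockout list.

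Olfactory receptor genes, odorant receptors that lie in large clusters and are silent outside the nose, were counted in the same way and also chosen after their values had been seen. Within 10 kb of one lay 16 of the regions, or 1.18% (interval 0.676 to 1.91), against 0.503% of the union. Regions of the Ubc9-depleted list only had 0.839%, those of both control lists only 0.461%, and those in all 4 lists 0.350%. Those of the Ubc9-depleted and wild-type lists only had 0.673% (0.248 to 1.46), an interval that holds 1.18%. Those of the Ubc9-control and triple-knockout lists only had 0.278%, and those of the Ubc9-depleted and both H1 lists 0.380%. The highest-ranking was near Olfr978, with 144.9 and 201.6. A run of 3 on chromosome 11 lay around Trim58 and Olfr318, where neither control list had an interval. Within 10 kb of a zinc-finger gene named Zfp lay 1.48% (0.904 to 2.27), next to 1.33% of the union and 2.27% of regions in all 4 lists. Within 100 bp of a microRNA gene lay 3 (0.221%, 0.0457 to 0.646), at Mir8092, Mir7668 and Mir344. Of the union 0.0968% did, and of regions in all 4 lists 0.296%.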

How the data were processed

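The score in each list is the value the authors deposited per peak, and it was used only within a list. Per the submitters' processing notes, the build was mm10 and the tools were MACS 1.4.2-1, Picard, Bowtie2 and CASAVA 1.8.2. Their settings, and any shift of read ends, are not given in the sources used here. Both replicates of a group were joined in 1 list, per the labels. Intervals were merged and counted in Python 3.11.15 (pandas 2.3.3, numpy 2.4.6, scipy 1.17.1), with steps tested on simulated data. Genes, starts and promoter sequences are RefSeq's for GRCm38.p6; gene ends are both ends of a gene, 1000 bp each side. Named are the 12 highest-ranking regions and genes, up to 4 genes per list at gene ends, genes and runs with most regions, the 5 regions on each side of the threshold, and genes chosen after their values were seen. The regions and gene lists were chosen with earlier results of these data known. Chromosome Y and scaffolds were left out of the counts. Alternatives changed the merging, overlap, score, distance, chromosomes, list lengths and windows. A few genes picked by the naming rule are not reported here.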

Additional observations from a re-analysis of the deposited data

How the results depend on the processing

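Each result was recomputed under up to 10 settings. A minimum score of 100 in each perturbed list left 309 regions and 40 genes with a region at a gene end, put 26.5% of the regions inside genes, and gave 65.9% in place of 60.3% for the share of regions gained in the Ubc9 pair that were in the triple-knockout list. For regions of the Ubc9-control and not the depleted list the share was then 35.2%, in place of 42.0%. With equal numbers of top-scoring intervals the first share was 56.5%, over 954 regions. Gene ends of 2500 bp raised the share of regions at gene ends to 15.4%. The share near tRNA genes fell to 0.312% without chromosome 13, an alternative added after the data were seen, as were those for the chromosome 3, tRNA and CpG shares. The other 64 of 71 values stayed within the interval of the main value or, for counts, within 1.5 times of it. No paired analysis was possible because each group has 1 list made from both replicates, and for the same reason no replicate could be left out. Without read depths, a region missing from a control list may be one that fell under the calling threshold.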
